A study of Rattus norvegicus with 6 samples.

Results

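Aif1, Cx3cr1, Csf1r and Cd68 are 4 genes by which microglia, the resident macrophages of the brain, and their lysosomes are commonly followed. They were chosen by name, through 4 Ensembl identifiers (ENSRNOG00000000853 for Aif1, ENSRNOG00000018509 for Cx3cr1, ENSRNOG00000018414 for Csf1r and ENSRNOG00000037563 for Cd68). The rule sets no condition on their values, but the genes were picked with earlier results of these data known. The 4 identifiers were found among the 22976 genes of the table. The table gives no symbols and the reference table used here holds none of the identifiers, so the pairing of symbol and identifier is that of the choice and was not checked against an annotation.

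The tissue was the rostral ventromedial medulla (RVM) of rats, the brainstem relay from which pain transmission in the dorsal horn and trigeminal nuclei is facilitated or inhibited. One group of 3 libraries is from rats whose temporomandibular joints were each injected with 50 µL of complete Freund's adjuvant (CFA), a suspension of killed mycobacteria in oil that causes lasting inflammation of the joint. The other group of 3 is from rats injected with 50 µL of saline in the same way, and both were taken on day 3. The labels give no strain, sex or age and do not say whether replicates are separate rats, so each p-value reflects the spread among 6 libraries and that spread may be technical. Library totals worked out from the FPKM values ran from 27534174 to 44977905 fragments.

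Microglia depend for survival on CSF1R, a receptor tyrosine kinase of the cell surface that is bound by the ligands CSF1 and IL-34. CX3CR1, a G protein-coupled receptor, binds fractalkine, a chemokine that neurons present on their membrane. AIF1, better known as IBA1, is a calcium-binding protein that bundles actin in membrane ruffles and is the usual stain for microglia. CD68, or macrosialin, is a heavily glycosylated membrane protein of late endosomes and lysosomes whose stain is widely used as a sign of phagocytic activity. All of these genes are also expressed by other macrophages and monocytes, and RNA of whole tissue does not tell such cells from microglia.

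Windows around annotated starts of the genes are shown because transcription of macrophage genes is known to depend on PU.1, a factor of the ETS family that binds purine-rich DNA. Of the 4 symbols, 3 matched an entry and Aif1 did not. The sequences are from RefSeq, build GRCr8, from 250 bases before to 50 after the start that the table sets for the gene, read 5′ to 3′ on the gene's strand. That start is the 5′ edge of the gene in RefSeq's gene table for Cd68, but for Csf1r and Cx3cr1 it lies inside the gene. The Csf1r window takes in the 5′ edge (base 56834152) near its upstream end, so most of it is within the gene. The Cx3cr1 window does not reach the 5′ edge (base 128679048). Capitals mark the letters GAGGAA, a core of PU.1 sites, on either strand (TTCCTC on the strand shown).
Csf1r, chr18:56834129-56834428, plus strand: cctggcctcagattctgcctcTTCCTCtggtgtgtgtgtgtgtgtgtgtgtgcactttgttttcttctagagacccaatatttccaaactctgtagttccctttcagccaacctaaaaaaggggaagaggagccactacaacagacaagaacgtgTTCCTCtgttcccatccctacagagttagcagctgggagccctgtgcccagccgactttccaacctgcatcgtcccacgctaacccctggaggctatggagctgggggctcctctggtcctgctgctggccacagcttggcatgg
Cd68, chr10:54882392-54882691, minus strand: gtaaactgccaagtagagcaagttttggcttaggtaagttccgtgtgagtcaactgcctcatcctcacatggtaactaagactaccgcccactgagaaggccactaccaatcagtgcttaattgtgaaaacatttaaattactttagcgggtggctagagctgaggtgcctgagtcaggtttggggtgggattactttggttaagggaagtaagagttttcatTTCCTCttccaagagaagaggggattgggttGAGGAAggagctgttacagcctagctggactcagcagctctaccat
Cx3cr1, chr8:128677017-128677316, minus strand: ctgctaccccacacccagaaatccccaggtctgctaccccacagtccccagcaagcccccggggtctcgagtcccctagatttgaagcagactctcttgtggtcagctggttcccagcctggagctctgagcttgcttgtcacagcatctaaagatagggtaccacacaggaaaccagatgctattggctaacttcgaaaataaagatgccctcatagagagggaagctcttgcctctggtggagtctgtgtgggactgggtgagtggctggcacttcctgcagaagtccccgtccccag
The core occurs at 2 positions in the Csf1r window, at 2 in the Cd68 window and at 0 in the Cx3cr1 window, without overlap between matches. Of all 33469 rat promoter windows of this length, 27.6% hold it at least once. The letters CACGTG, the centre of the element bound by TFEB, a regulator of lysosomal genes, are in none of these 3 windows and in 6.42% of all windows. A match of letters is a description of the window and not a binding site.

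On day 3 after the joint injections, transcripts of the microglial survival receptor, the fractalkine receptor, the actin-bundling marker and the lysosomal glycoprotein were all more abundant in the RVM of CFA rats. The ratio of the group means of FPKM (fragments scaled by the length of the gene and by the depth of the library, so that different genes can be set side by side) was 5.94 for Cd68, 4.00 for Aif1, 3.23 for Csf1r and 2.42 for Cx3cr1. The study concerns the part of RVM microglia in orofacial pain, and these genes bear on whether microglial transcripts differ there after joint inflammation. In each of them the lowest CFA library was above the highest saline library, by a factor of 2.20 in Cx3cr1 to 4.44 in Cd68. Such a complete separation with CFA above saline was seen in 16.1% of the 22976 genes of the table. In RNA of whole tissue, more cells of a type and more RNA per cell cannot be told apart.

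**Figure D1:**
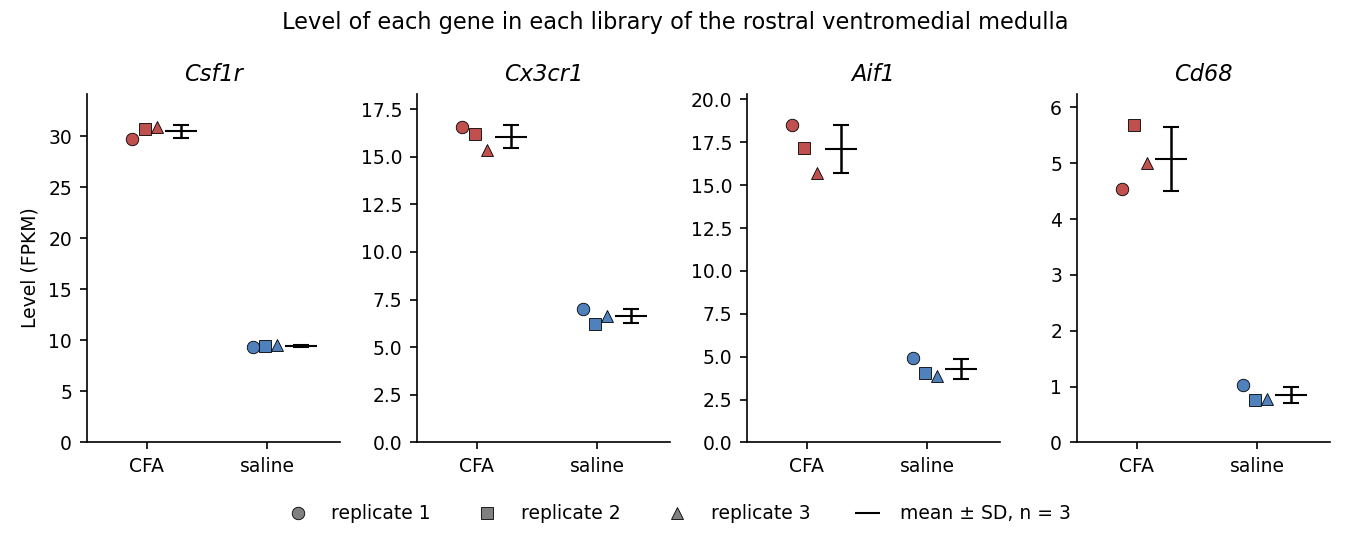
Level in FPKM (vertical axis, from 0, a different range in each panel) of Csf1r, Cx3cr1, Aif1 and Cd68 in each of the 3 CFA and 3 saline libraries, with bars for the mean and SD. In each panel the CFA libraries lie above the saline libraries, with the tightest groups in Csf1r and the widest, relative to the mean, in Cd68.

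Of the surface receptors, Csf1r was the more abundant. Its level was 29.8, 30.7 and 30.9 FPKM in CFA replicates 1, 2 and 3, and 9.36, 9.40 and 9.54 FPKM in saline replicates 1, 2 and 3. The libraries of a group hardly differed, and the gap between the groups was many times their spread. In saline the variance between libraries was 0.175 times counting (Poisson) noise, a smaller spread than counting alone gives on average. The means were 30.4 ± 0.607 FPKM in CFA and 9.43 ± 0.0952 FPKM in saline (SD, n = 3 each), resting on 13674 and 5087 fragments. The log2 change of FPKM + 1 was 1.59 (SE 0.0305, 95% confidence interval 1.52 to 1.66, adjusted p = 4.3e-08, limma with Benjamini-Hochberg adjustment). By p this was rank 11 of the 13566 genes tested, and by size of the rise rank 62.

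Cx3cr1, the fractalkine receptor, had the smallest change of the 4 genes, both as a ratio of plain FPKM and on the log2(FPKM + 1) scale. Its level was 16.5, 16.2 and 15.4 FPKM in CFA replicates 1, 2 and 3, against 7.00, 6.24 and 6.66 FPKM in saline replicates 1, 2 and 3. No saline library came near the lowest CFA library. The means were 16.0 ± 0.607 FPKM in CFA and 6.63 ± 0.382 FPKM in saline (SD, n = 3 each), from 7234 and 3599 fragments. On the log2 scale the change was 1.16 (SE 0.0498, 95% confidence interval 1.04 to 1.28, adjusted p = 3.06e-06, limma with Benjamini-Hochberg adjustment), rank 134 by size and 82 by p.

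Aif1, the gene of the IBA1 protein, was higher than Cx3cr1 in each CFA library and lower than it in each saline library. It stood at 18.5, 17.1 and 15.7 FPKM in CFA replicates 1, 2 and 3 and at 4.94, 4.02 and 3.89 FPKM in saline replicates 1, 2 and 3. Replicate 1 was the highest library of both groups, and the groups lay well apart. The means were 17.1 ± 1.38 FPKM in CFA and 4.28 ± 0.571 FPKM in saline (SD, n = 3 each), from 3395 and 1025 fragments. Its log2 change of 1.78 (SE 0.0856, 95% confidence interval 1.58 to 1.98, adjusted p = 5.83e-06, limma with Benjamini-Hochberg adjustment) was rank 41 by size and 103 by p. The libraries of a group varied more in Aif1 than in the other 3 genes relative to counting noise. The variance between libraries was 7.82 times counting (Poisson) noise in CFA and 6.35 times in saline. For Cx3cr1 it was 3.59 times in CFA and 3.90 times in saline, and for Csf1r 1.97 times in CFA and 0.175 times in saline.

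Cd68, the lysosomal gene of the set, was the least abundant and had the largest ratio of group means. Its level was 4.54, 5.68 and 5.01 FPKM in CFA replicates 1, 2 and 3, and 1.02, 0.768 and 0.774 FPKM in saline replicates 1, 2 and 3. The highest saline library was still far below the lowest CFA library. The means were 5.08 ± 0.575 FPKM in CFA and 0.854 ± 0.144 FPKM in saline (SD, n = 3 each). These rest on 223, 201 and 208 fragments in the CFA libraries and on 59, 34 and 38 fragments in the saline libraries. By exact Poisson intervals, which cover counting error only, the lowest CFA library lay between 3.96 and 5.17 FPKM and the highest saline library between 0.777 and 1.32 FPKM. Variance between libraries was 2.69 times counting noise in CFA and 1.28 times in saline. The log2 change of FPKM + 1 was 1.71 (SE 0.0927, 95% confidence interval 1.50 to 1.93, adjusted p = 1.15e-05, limma with Benjamini-Hochberg adjustment), rank 49 by size and 129 by p. With a saline mean under 1 FPKM, Cd68 passed the filter on low values through its CFA libraries.

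Set against the whole transcriptome, Aif1, Cx3cr1 and Csf1r, whose saline means alone exceed the filter, each passed the adjusted threshold as higher in CFA, where 11.3% of the 13566 genes tested did (18.8% in either direction). Each passed it with a rise of at least 1 on the log2 scale, as did 1.34% of genes tested. Without any filter on low values, so that Cd68 does not enter through its CFA level, 4 of the 4 genes passed as higher, against 6.47% of 22976 genes, with the adjusted p at most 0.000221 (limma, Benjamini-Hochberg). The median log2 change of the 4 genes was 1.65, and that of all 22976 genes was 0.0077. An exact permutation test over 3 libraries against 3 gave p = 0.1 (two-sided) for each gene, the smallest value that this design allows.

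**Figure D2:**
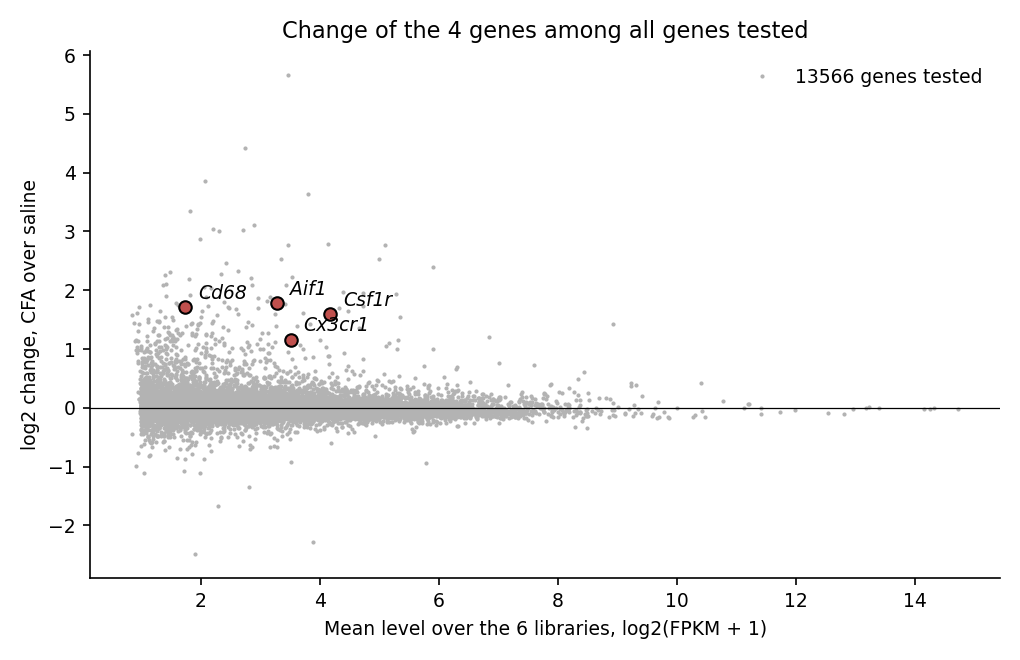
Change in CFA over saline on the log2(FPKM + 1) scale (vertical axis) against mean level over the 6 libraries on the same scale (horizontal axis) for the 13566 genes tested (grey) and for Aif1, Cx3cr1, Csf1r and Cd68 (red). The 4 genes lie between 1.16 and 1.78, above the bulk of genes.

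The order of levels was not the same in the groups. In CFA libraries Csf1r was highest, Aif1 and Cx3cr1 followed with overlapping values (15.7 to 18.5 FPKM for Aif1 and 15.4 to 16.5 FPKM for Cx3cr1), and Cd68 was lowest. In saline libraries the order was Csf1r, Cx3cr1, Aif1 and Cd68, with no overlap between neighbours in that order. By mean FPKM among the genes tested, Csf1r held rank 1953 in CFA and 5867 in saline, and Aif1 3635 in CFA and 9055 in saline. Cx3cr1 held rank 3872 in CFA and 7345 in saline, and Cd68 8607 in CFA and 13421 in saline. Cd68 entered this ranking through its CFA libraries, so its place near the bottom in saline is partly set by the filter. These levels depend on the gene lengths behind the FPKM values, which came out as 2013 bases for Aif1, 4590 for Cx3cr1, 4586 for Csf1r and 1285 for Cd68.

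Ratios of genes within a library showed by how much the genes rose relative to each other. Ratios of plain FPKM do not depend on how the library was scaled, while differences on the log2(FPKM + 1) scale do. The FPKM of Aif1 over that of Cx3cr1 was 1.12, 1.06 and 1.02 in CFA replicates 1, 2 and 3, against 0.705, 0.645 and 0.584 in saline replicates 1, 2 and 3. The rise of Aif1 was the larger, by 0.62 on the log2(FPKM + 1) scale. For Csf1r over Cx3cr1 the ratio was 1.80, 1.89 and 2.01 in CFA replicates 1, 2 and 3 and 1.34, 1.51 and 1.43 in saline replicates 1, 2 and 3, a difference of 0.43 on the log2(FPKM + 1) scale. Cd68 over Cx3cr1 gave 0.274, 0.350 and 0.326 in CFA replicates 1, 2 and 3 and 0.146, 0.123 and 0.116 in saline replicates 1, 2 and 3, a difference of 0.55 on the log2(FPKM + 1) scale. In plain FPKM, chosen as a scale after seeing the data, the difference of the log2 ratios was 1.302 for Cd68 over Cx3cr1, 0.73 for Aif1 over Cx3cr1 and 0.42 for Csf1r over Cx3cr1, so the size for Cd68 depends on the FPKM added. The groups did not overlap in any of these 3 ratios on either scale. Each had p = 0.1 by the exact permutation test (two-sided), the smallest possible. After Benjamini-Hochberg adjustment over the 6 pairs of genes the permutation p was 0.2 on the log2(FPKM + 1) scale and 0.12 in plain FPKM.

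**Figure D3:**
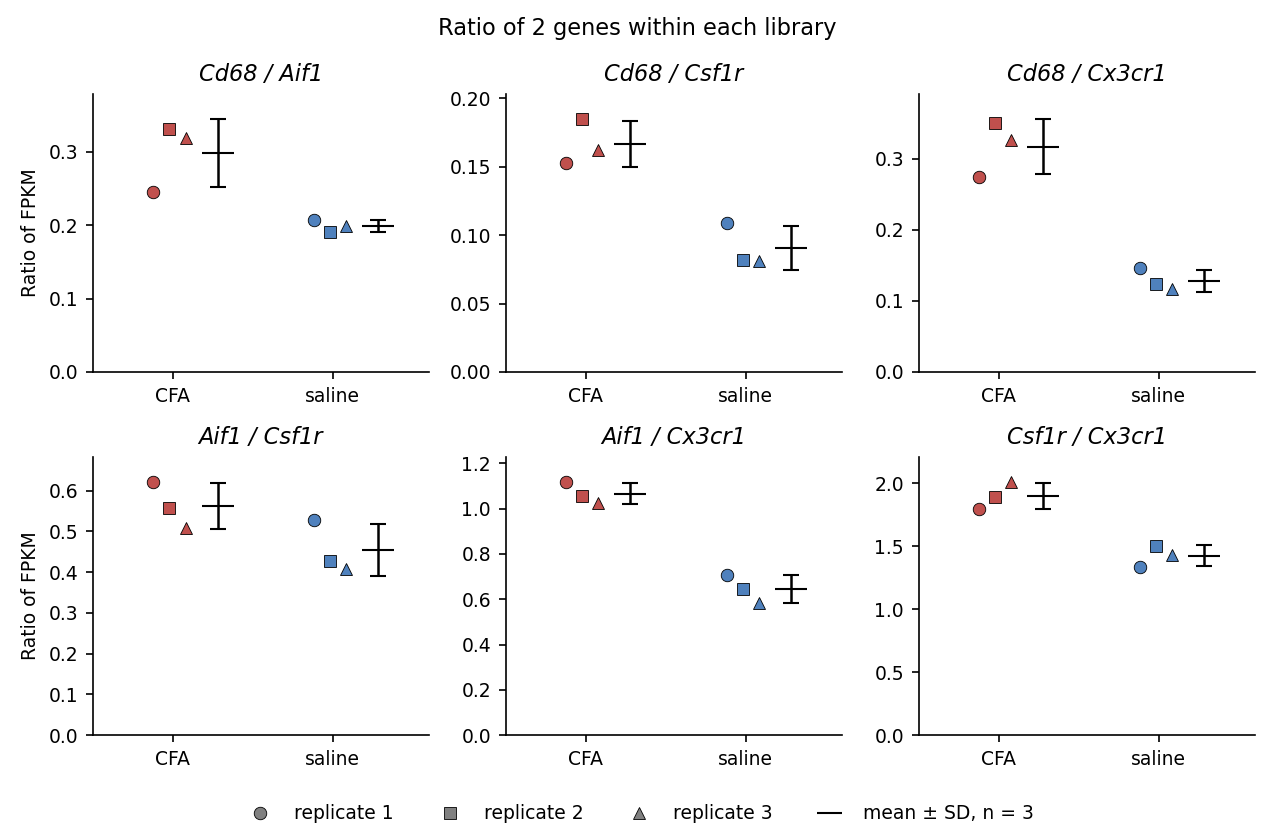
Ratio of the FPKM of 2 genes within each library (vertical axis, from 0) for the 6 pairs, in 3 CFA and 3 saline libraries, with bars for the mean and SD. The groups are separate in 5 pairs, and overlap in Aif1 over Csf1r.

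On the log2(FPKM + 1) scale the pairs among Cd68, Aif1 and Csf1r were less clear. In plain FPKM, the scale chosen after seeing the data, only Aif1 over Csf1r overlapped (exact permutation p = 0.2, also 0.2 after adjustment). There Cd68 over Aif1 and Cd68 over Csf1r each had exact permutation p = 0.1, and 0.12 after adjustment. Aif1 over Csf1r was 0.509 to 0.621 in CFA libraries and 0.407 to 0.527 in saline libraries, and these ranges overlap. The difference on the log2(FPKM + 1) scale was 0.19 (exact permutation p = 0.3, adjusted p = 0.36 over the 6 pairs), and 0.12 without CFA replicate 1. Cd68 over Aif1 was 0.245 to 0.331 in CFA libraries and 0.191 to 0.207 in saline libraries, a separation in plain FPKM. With 1 FPKM added, the rise of Cd68 on the log2 scale was the smaller (difference -0.069, exact permutation p = 0.9, also 0.9 after adjustment), so which of these genes rose more depends on the scale. Cd68 over Csf1r was 0.152 to 0.185 in CFA libraries and 0.0811 to 0.109 in saline libraries, separate in plain FPKM, while the groups overlapped with 1 FPKM added (difference 0.12, exact permutation p = 0.3, adjusted p = 0.36). This difference was 0.054 without CFA replicate 2, 0.19 without saline replicate 1 and 0.89 in plain FPKM. A difference that misses the threshold in 3 libraries against 3 does not show that genes rose alike.

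Over the 6 libraries, with 1 FPKM added, Cd68, Aif1 and Csf1r were nearer to each other in profile than to Cx3cr1. With 0.01 FPKM added, Cd68 was the farthest gene from Csf1r and from Cx3cr1, but Cx3cr1 was the farthest from Aif1. Likeness was measured as the root mean square difference of log2(FPKM + 1) values after centring each gene on its own mean. It was 0.113 between Csf1r and Cd68, 0.127 between Aif1 and Cd68 and 0.154 between Aif1 and Csf1r. Cx3cr1 was 0.225 from Csf1r, 0.292 from Cd68 and 0.318 from Aif1. With 0.01 FPKM added, a setting chosen after seeing the data, Csf1r was 0.2099 from Aif1, 0.218 from Cx3cr1 and 0.466 from Cd68. Cd68 was 0.314 from Aif1 and 0.660 from Cx3cr1, and Aif1 was 0.374 from Cx3cr1. With 1 FPKM added, 7 of 13565 other genes tested were nearer to Aif1 than Cd68 was, and 8 were nearer to Cd68 than Csf1r was. For Csf1r 31 were nearer than Cd68, and for Cx3cr1 203 were nearer than its nearest gene of the set, Csf1r. Such a count depends on how many genes changed by a like amount, and it was not made with 0.01 FPKM added. The measure is mostly the size of the difference between the groups and is a description of these libraries.

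The library at the top of a group was not the same for each gene. Among CFA libraries replicate 1 was highest in Aif1 and Cx3cr1 and lowest in Csf1r and Cd68. Among saline libraries replicate 1 was highest in Aif1, Cx3cr1 and Cd68 and lowest in Csf1r. By rank, no library was thus the highest or the lowest of its group in all of the genes. The order of the saline libraries in Csf1r lay within counting error. The exact Poisson interval of replicate 1 there, 8.95 to 9.79 FPKM, held the values of replicates 2 and 3 (9.40 and 9.54 FPKM). In CFA, the Poisson intervals of replicate 1 in Csf1r and Cd68 overlapped those of replicates 2 and 3. These ranks therefore cannot decide whether a library was high in all of the genes.

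In the RefSeq table (GRCr8), Cd68 lies 26 bases from Mpdu1 and Csf1r 143 bases from Hmgxb3, without overlap, and Aif1 overlaps no other gene. Cx3cr1 overlaps 1 gene that has no name beyond its locus, LOC134480114. The sources used here state neither a strand-marking protocol nor a rule for shared reads. Fragments of a gene and of an overlapping transcript thus cannot be told apart in Cx3cr1, and how far this touches its values was not tested. The submitters' notes name another build, mRatBN7.2, and overlap of the other genes in the annotation behind the values was not checked. The values of other cell types' markers are not analysed here, and their part in the rise of these 4 genes was not tested.

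**Figure D4:**
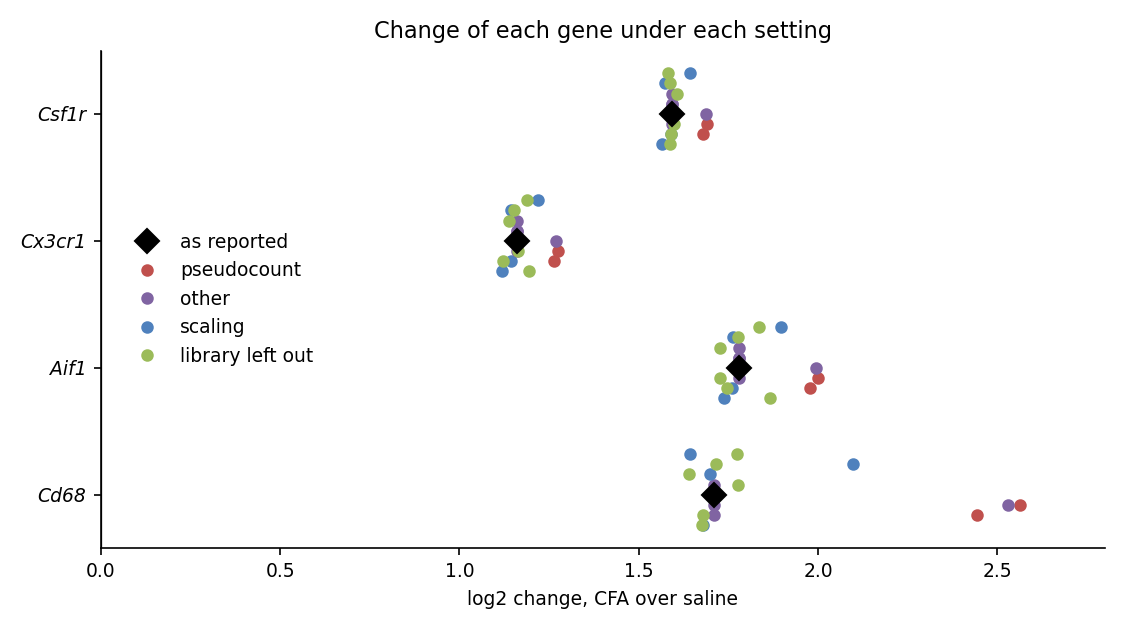
Change of Csf1r, Cx3cr1, Aif1 and Cd68 in CFA over saline on the log2 scale (horizontal axis) as reported (diamonds) and under each other setting (points, coloured by the choice changed). All values lie between 1.12 and 2.56, and those of Cd68 spread widest, with the smaller pseudocounts at the right.

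The sizes of the rise on the log2(FPKM + 1) scale understate those of plain FPKM most where levels are low. With 0.01 FPKM added in place of 1, the log2 change was 2.56 for Cd68, 2.00 for Aif1, 1.69 for Csf1r and 1.27 for Cx3cr1. On that scale Cd68 rose more than Aif1, and the order of the other genes stayed the same.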

How the data were processed

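Rat rostral ventromedial medulla was profiled by poly-A RNA sequencing in 6 libraries, grouped by their titles. The authors deposited 1 FPKM value per gene and library for 22976 Ensembl identifiers. The submitters' processing notes name DESeq2 1.30.1, StringTie 2, HISAT2 2, fastp 0.21.0 and the genome build mRatBN7.2 without saying what each was used for. Neither those notes nor the labels state the annotation, the counter, a strand setting or a gene filter. Each of the 6 value columns was used.

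The 13566 genes averaging 1 FPKM or more were tested with limma 3.58.1 in R 4.3.3 on log2(FPKM + 1), CFA against saline over all 6 libraries, with a mean-variance trend, two-sided, and Benjamini-Hochberg adjustment over all genes tested (threshold 0.05). Confidence intervals are at 95%. The fit and the recovery of fragments were tested on simulated data. The simulation of the fit gave all genes the same variance relative to counting noise, whereas this differed among the 4 genes here. FPKM moved in whole steps, from which library totals and whole fragments were worked out, within 0.0001 of a fragment in 22967 genes (99.96%). Exact permutation tests over libraries and Poisson intervals used scipy 1.17.1 in Python 3.11.15, with numpy 2.4.6, pandas 2.3.3 and matplotlib 3.10.9.

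The 4 genes, the further gene lists and the tests were chosen with earlier results of these data known. Named genes were to be the 4 genes, members of lists of other microglial, lysosomal and cell type genes, and the genes nearest in profile that have a symbol. Since 0 of the 22976 identifiers occur in the reference table used here, only the 4 genes, whose symbols came with the rule that chose them, were analysed, and the lists, including markers of other cell types, are not analysed here. Alternatives covered the pseudocount, the filter, the scaling, the variance moderation, a replicate block, libraries left out one at a time and voom on recovered fragments. The ratio of plain FPKM between genes, and likeness of profiles with 0.01 FPKM added, were chosen after seeing the data.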

Additional observations from a re-analysis of the deposited data

How the results depend on the processing

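Aif1, Cx3cr1 and Csf1r stayed higher in CFA and past the adjusted threshold of 0.05 (limma) in 19 of 19 alternatives, and Cd68 in 18 of 18; it was not among the genes tested at a mean of at least 5 FPKM. Log2 changes ran from 1.73 to 2.00 for Aif1, 1.12 to 1.27 for Cx3cr1, 1.57 to 1.69 for Csf1r and 1.64 to 2.56 for Cd68. With single libraries left out the values were 1.73 to 1.87 for Aif1, 1.12 to 1.19 for Cx3cr1, 1.58 to 1.61 for Csf1r and 1.64 to 1.78 for Cd68. For Cd68, the log2 change went from 1.71 to 2.44 and 2.56 with pseudocounts of 0.1 and 0.01 FPKM. This follows from their construction, since they shrink the folds of low genes less than 1 FPKM does. With voom on recovered fragments it was 2.53.

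The difference between Cd68 and Aif1, -0.069 on the log2 scale, turned to 0.47 with a pseudocount of 0.1 FPKM, 0.56 with 0.01 FPKM, 0.57 with the ratio of plain FPKM, 0.20 with FPKM rescaled to the same sum and 0.049 without CFA replicate 1. It ran from -0.137 to 0.049 over the libraries left out. The other 5 differences between genes kept their direction in each alternative run, but not their size. Cd68 minus Csf1r, 0.12 as reported, ran from 0.054 (without CFA replicate 2) to 0.19 (without saline replicate 1) with single libraries left out and was 0.89 with the ratio of plain FPKM. Aif1 minus Csf1r, 0.19 as reported, was 0.12 without CFA replicate 1 and 0.31 in plain FPKM, and Cd68 minus Cx3cr1, 0.55 as reported, was 1.18 with a pseudocount of 0.1 FPKM and 1.302 in plain FPKM. The count of all genes past the threshold, 2545, lay between 1758 and 3466, and 60.1% of them were higher in CFA as reported against 46.2% with quantile scaling.

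With the replicate number as a block, the 4 genes kept their calls (adjusted p at most 0.000427, limma) and 2086 genes passed in all. Deviations of same-numbered libraries from their group means were hardly correlated (-0.021, 0.021 and 0.023 across genes). With 3 libraries in a group this cannot decide whether same-numbered libraries were handled together. Of the CFA libraries, replicates 2 and 3 correlated best with the saline library of their own number, and replicate 1 did not. Alternatives for the further gene lists were not run. Depth limits the values of Cd68 in saline, which rest on 131 fragments in all.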
